A study of Rattus norvegicus with 4 samples.

Results

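Interleukin-6 acts on cells through a receptor that pairs a ligand-binding chain, encoded by Il6r, with the shared signalling chain gp130, encoded by Il6st. Oncostatin M uses gp130 together with the product of Osmr. Ligand binding activates Janus kinases such as JAK2, which phosphorylate STAT3, a transcription factor that then enters the nucleus. Among the genes that STAT proteins switch on are Socs1, Socs2, Socs3 and Cish, whose products bind the receptors or kinases and end the signal, so that the pathway carries its own brake. In the colon, IL-6 is made largely by myeloid and stromal cells, and STAT3 is active both in inflammatory cells and in the epithelium during repair. The 10 genes Il6, Il6r, Il6st, Osmr, Jak2, Stat3, Socs1, Socs2, Socs3 and Cish, chosen by name, are described here. They were represented by 12 of 41012 probes, and by 10 of the 15541 genes that could be named on the array.

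The tissue was the mucosa of the colon, taken from rats of the inbred strain F344. The resveratrol rats had eaten 1 mg of the polyphenol resveratrol per kg body weight daily for 20 days, and then drank water with 5% dextran sodium sulphate (DSS) during 5 days. The control rats had standard chow and the same 5% DSS for 5 days, so that both groups had chemically injured colons and no uninjured colon was compared. Each of 4 two-channel arrays carried resveratrol plus DSS RNA pooled from 2 rats (rats 1 and 2, 3 and 4, 5 and 6, 7 and 8 for replicates 1 to 4), labelled with Cy5. The other channel carried RNA of a pool of DSS control rats, labelled with Cy3. The dyes were never exchanged, so a dye effect and the treatment cannot be told apart. The control pool counts as 1 sample, and its own spread between rats was not measured. Strain, DSS dose and tissue were shared by both channels. In bulk RNA, fewer cells of a type and less RNA per cell cannot be told apart.

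Array files name replicates 1 and 2 as one slide and replicates 3 and 4 as the other. A spot that the scanner software marked as well above background is called detected here. In Cy5 the detected share ran from 44.1% to 49.2% of spots and in Cy3 from 42.8% to 57.1%. Outlier flags, for uneven or outlying spots in either channel, were carried by 3.45% to 13.7% of spots, most on slide 2. The log2 ratios of 2 arrays correlated, over the tested probes, with r of 0.70 to 0.89. All 10 tested colon epithelium markers were detected in both channels of all 4 arrays. A list of 7 pancreatic enzyme genes was also present: of 5 tested, 4 were lower in the resveratrol samples, with Ctrb1, chymotrypsinogen, at -2.55 ± 0.10 and Cela1, an elastase gene, at -0.09 ± 0.13 on 2 arrays, not called. The other lower ones include Amy2a3, a pancreatic amylase named after its values were seen, at least 23.4-fold lower (adjusted p = 0.000904), and Prss1, a trypsinogen named likewise, at least 3.18-fold lower (0.00282). Over all 9428 genes tested, 19.6% were lower. The number of arrays limits the precision of every value.

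A log2 ratio is Cy5 over Cy3, so that positive values mean more transcript in the resveratrol plus DSS samples. Values after ± are moderated standard errors (SE) over the 4 arrays unless fewer are named, and a probe was called when its adjusted p in limma was below 0.05. Of the 12 probes, 9 were bright enough to be tested, and these represent 7 genes. Stat3 was higher by both of its probes, and Il6st, Osmr, Socs1 and Socs3 were lower, while Jak2 and Cish were not called. The 2 higher and 4 lower of 9 probes stand beside 24.4% higher and 22.7% lower of all 18869 probes tested. Calls were frequent on the whole array, and nothing particular to the pathway is read from the counts. Counted by gene through the brightest probe, 1 member of 7 was higher and 4 were lower, against 25.7% and 19.6% of 9428 genes tested. The median log2 ratio of the 7 genes was -0.24, and that of all genes tested was 0.02.

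**Figure D1:**
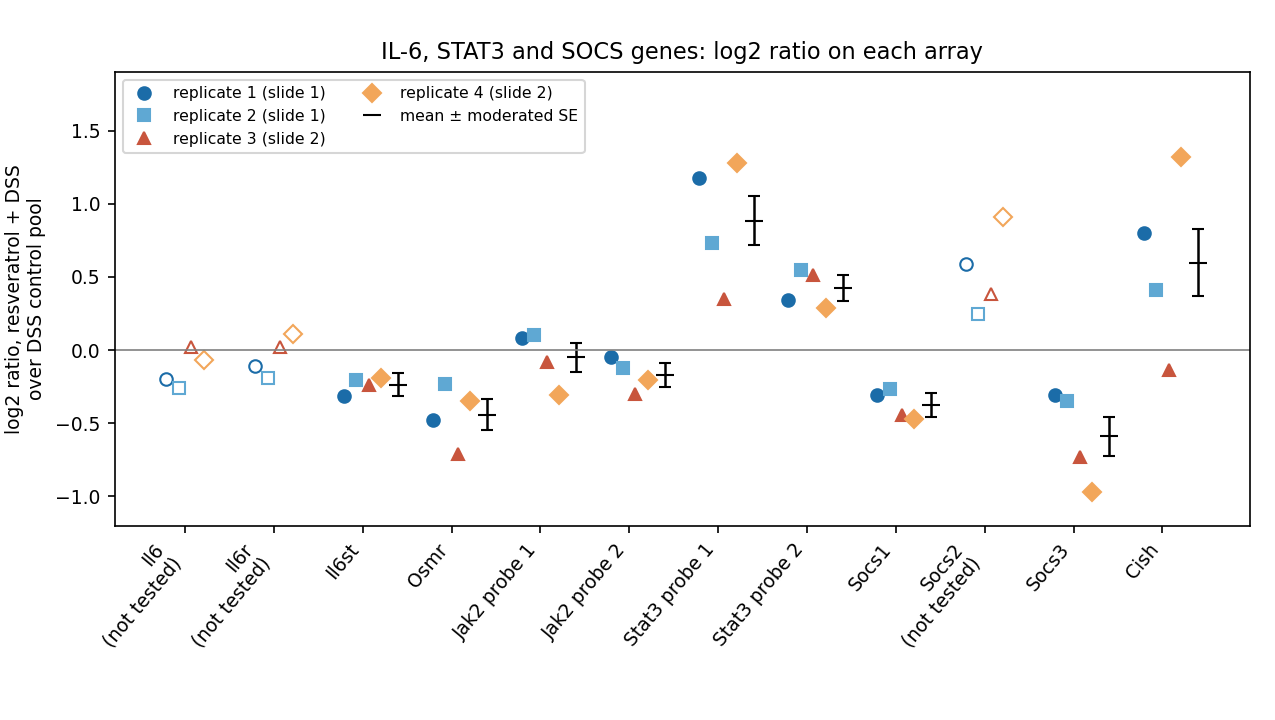
Log2 ratio (vertical axis, resveratrol plus DSS over the DSS control pool) of each of the 12 probes on each of the 4 arrays; point shapes are replicates, filled points are tested probes, open points are probes too dim for the test, and bars give the mean ± moderated SE. Both Stat3 probes lie above 0 on all 4 arrays, and Il6st, Osmr, Socs1 and Socs3 lie below 0 on all 4; Cish runs from -0.14 to 1.32.

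The probes are single DNA strands of 60 bases that capture 1 stretch of the transcript each. They are shown for 5 genes whose ratios are described most closely, since a ratio belongs to exactly that stretch and not to the whole transcript. Positions are those of the array files in the rn3 build, no annotation of that build was used here, and the sequences are the array's own, in lower case.
Stat3 probe 1, chr10:89838189-89838539, minus strand: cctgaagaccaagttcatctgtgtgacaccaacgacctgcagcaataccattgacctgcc
Socs3, chr10:107973207-107973266, minus strand: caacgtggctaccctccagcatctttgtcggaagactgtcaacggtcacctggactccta
Socs1, chr10:4820384-4820443, plus strand: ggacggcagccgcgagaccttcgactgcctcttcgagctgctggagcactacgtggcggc
Cish, chr8:112564036-112564095, plus strand: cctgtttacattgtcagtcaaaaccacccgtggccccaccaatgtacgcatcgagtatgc
Osmr, chr2:56009432-56010176, minus strand: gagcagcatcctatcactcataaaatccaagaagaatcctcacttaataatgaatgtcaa
The positions of Stat3 probe 1 span 351 bases and those of Osmr 745 bases, more than the 60 of a probe, so each crosses at least 1 gap between aligned blocks. The other 3 probes lie in 1 block. G and C made up 68.3% of the Socs1 probe, 55.0% of Socs3, 51.7% of Stat3 probe 1 and of Cish, and 35.0% of Osmr. None of the 12 member probes held CACCTC or ACCTCA, hexamers named in an earlier account of the highest ratios. Of all tested probes, 3.81% held at least 1 of them on the printed strand, with a median log2 ratio of 0.20, against -0.03 for the rest. Since the hexamers were picked for high ratios, this difference is no independent evidence of an effect of the hexamers.

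Il6, the ligand, gave no measurable signal in either group. Its probe is printed at 10 spots on each array, and of the 40 spots in all, 0 were detected in Cy5 and 0 in Cy3. The log2 ratios of -0.20, -0.26, 0.02 and -0.07 for replicates 1 to 4 are therefore ratios of 2 signals near background, and the probe was not tested. Its spots scattered within an array with an SD of 0.171 to 0.234, and the array means spanned 0.28. The positions of the probe run from 457279 to 458563 on chromosome 4 of rn3. Without a brightness filter its adjusted p was 0.282. A difference in Il6 transcript was not detectable with this probe, in either direction.

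Il6r, named Il6ra on the array, was in the same state: its single probe was detected in neither channel on the 4 arrays. Log2 ratios were -0.11, -0.19, 0.02 and 0.11 in replicates 1 to 4, and the mean was -0.04. The values fell on both sides of 0, 2 arrays each. Without a brightness filter the adjusted p was 0.748.

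Il6st, encoding gp130, the chain that most IL-6 family receptors share, was measured in both channels on all 4 arrays. Its normalised log2 intensity was 8.37, 8.10, 8.55 and 8.42 in the resveratrol samples of replicates 1 to 4, against 8.69, 8.31, 8.79 and 8.61 in the control pool. Each resveratrol sample lay below the control channel of its own array, but the levels of the groups overlapped. The mean log2 ratio was -0.24 ± 0.08, a fold of 0.848, with an adjusted p of 0.0481. That call sat at the threshold: only 3 of 16 alternative settings kept it, and leaving out any of replicates 1 to 4 ended it (adjusted p = 0.197, 0.168, 0.0763 and 0.0782). Of all tested probes, 36.0% had a lower ratio than Il6st.

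Osmr, the oncostatin M receptor chain, was lower. It had log2 levels of 8.69, 8.64, 7.86 and 8.21 in the resveratrol samples, against 9.17, 8.87, 8.57 and 8.56 in the control pool. The resveratrol value of replicate 3 was the lowest and the only one not detected, and the 2 ranges overlapped. Log2 ratios were -0.48, -0.23, -0.71 and -0.35, with a mean of -0.44 ± 0.10 (adjusted p = 0.0207), a fold of 0.736. The scanner software's processed signals gave -0.87 (adjusted p = 0.0202) and ratios from the authors' deposited table -0.87 (adjusted p = 0.0245). The call was lost without replicate 1 (-0.43, adjusted p = 0.0768), without replicate 2 (-0.51, 0.0516), on slide 2 alone (0.0806) and under median centring (-0.32, 0.125).

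Jak2, the kinase, was not called by either probe. Probe 1 gave log2 ratios of 0.08, 0.11, -0.08 and -0.30 (mean -0.050 ± 0.10, adjusted p = 0.69), positive on slide 1 and negative on slide 2. Its mean turned to 0.035 without replicate 4 (adjusted p = 0.777). Probe 2, printed at 10 spots per array, gave -0.05, -0.13, -0.30 and -0.21 (mean -0.17 ± 0.08, adjusted p = 0.134). Of its 38 spots without an outlier flag, 29 lay below 0. Both probes lie near each other on chromosome 1 of rn3, at 233139704 to 233139763 and 233138702 to 233138761. Neither probe was called in any alternative run, which does not show that Jak2 was equal in both groups.

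**Figure D2:**
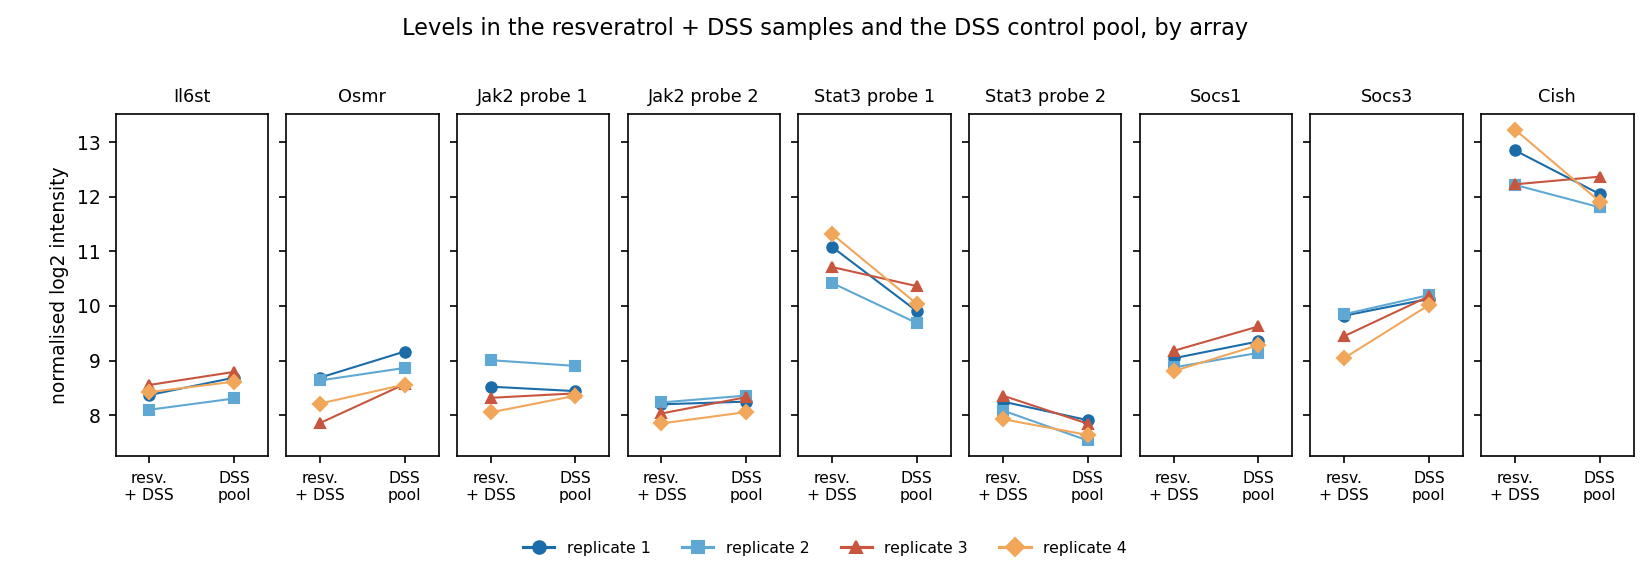
Normalised log2 intensity (vertical axis) of the 9 tested probes, with the resveratrol plus DSS sample on the left and the DSS control pool on the right of each panel; each line joins the 2 channels of 1 array. Lines rise to the left on all 4 arrays for both Stat3 probes and fall to the left for Socs1 and Socs3; levels may be compared within a panel, not between probes.

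Stat3 was the only tested member called higher. With probe 1 its normalised log2 intensity was 11.08, 10.42, 10.71 and 11.32 in the resveratrol samples, against 9.91, 9.69, 10.36 and 10.04 in the control pool. The lowest resveratrol value lay just above the highest pool value, so that the levels did not overlap. Such separation upward was found for 19.5% of the 14200 probes with values on 4 arrays. The log2 ratios were 1.17, 0.73, 0.35 and 1.28, with replicate 3 lowest and replicates 1 and 4 highest. Their mean was 0.88 ± 0.17 (adjusted p = 0.0117), a fold of 1.85, and a standard error from the 4 arrays alone was 0.21. Of all tested probes, 96.4% had a lower ratio. The call was kept in 14 of 16 alternatives, with means from 0.61 to 1.37. It was lost on slide 2 alone (0.81, adjusted p = 0.082) and with a standard error widened by the square root of 2 (adjusted p = 0.061).

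Stat3 probe 2 lies on the same strand at 89835515 to 89835574 of chromosome 10 in rn3, and 25.0% of its bases are G or C. Its signal was dimmer, and with the processing used here it read a smaller rise. Its log2 intensity was 8.25, 8.09, 8.36 and 7.93 in the resveratrol samples, against 7.91, 7.54, 7.85 and 7.64 in the pool. These levels did not overlap either, although Cy5 was detected on 3 arrays and Cy3 on 2. Log2 ratios were 0.34, 0.55, 0.51 and 0.29, with a mean of 0.42 ± 0.09 (adjusted p = 0.0147), a fold of 1.34. The probes agreed in direction on every array and differed in size and in order: replicate 3 was the lowest by probe 1 and the second highest by probe 2.

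Because probe 2 is printed at 10 spots, its error within an array can be read. Of its 39 spots without an outlier flag, 37 lay above 0. The spots of replicate 1 scattered most, with an SD of 0.396 and a range of -0.49 to 0.78, and those of replicates 2, 3 and 4 had SDs of 0.174, 0.124 and 0.130. On the array as a whole, 263 probes were printed at 10 spots, with a median SD of 0.144 between the spots of 1 probe on 1 array. The call of probe 2 was lost without replicate 1 (0.45, adjusted p = 0.0552), without replicate 2 (0.38, 0.0768) and on slide 2 alone (0.111). Processed signals gave 0.83 (adjusted p = 0.00751) and the authors' deposited table gave 0.88 (0.0062). Probe 1 was at 0.61 with processed signals and at 0.90 in the authors' table. The smaller rise of probe 2 thus depended on the processing.

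**Figure D3:**
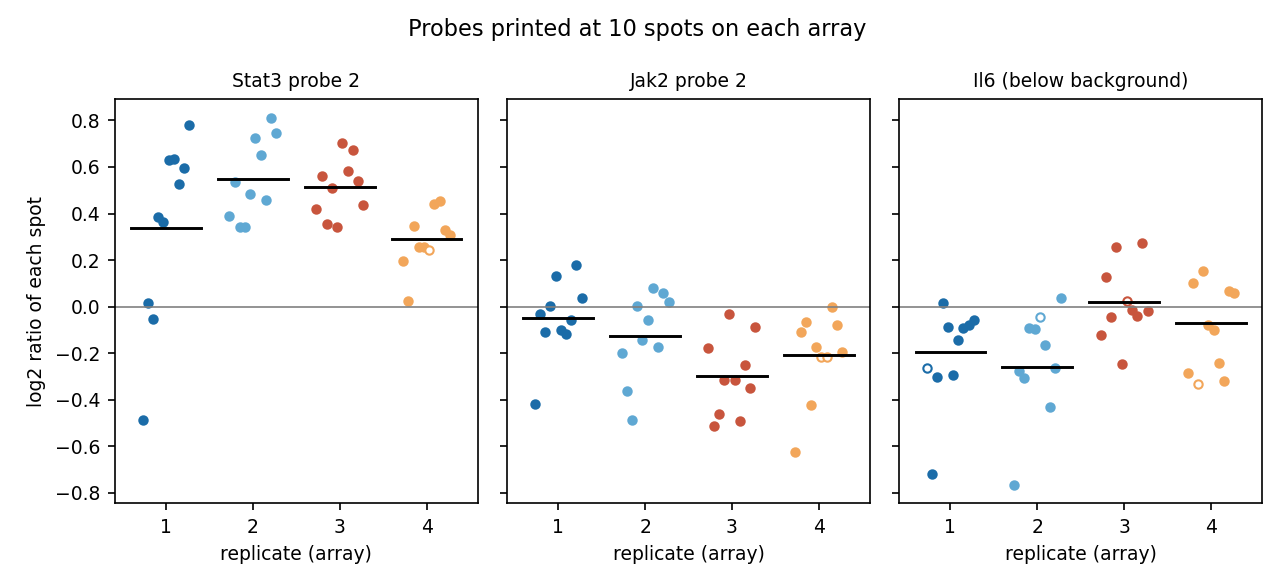
Log2 ratio (vertical axis, resveratrol plus DSS over the DSS control pool) of every spot of the 3 probes printed at 10 spots, by replicate; open points carry an outlier flag and bars are the means of the others. Of the spots without a flag, 37 of 39 lie above 0 for Stat3 probe 2, 29 of 38 lie below 0 for Jak2 probe 2, and no Il6 spot is well above background in either channel.

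The genes whose pattern over the 4 arrays came closest to Stat3 were Pomt1, Elf3, Otud5, Ifngr1 and Ifitm2, with root mean square differences in log2 ratio of 0.063, 0.080, 0.148, 0.148 and 0.154. They were taken from 6978 genes with values on all 4 arrays, and the likeness is a description over 4 arrays only. Elf3, an epithelial transcription factor, had ratios of 1.21, 0.75, 0.30 and 1.13. Ifngr1, a chain of the interferon gamma receptor, had 1.13, 0.92, 0.56 and 1.18.

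Of the 4 inhibitors, Socs3 and Socs1 were lower in the resveratrol samples, Cish was not called, and Socs2 was too dim for the test.

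Socs3, which blocks gp130 and the kinases bound to it, had the lowest mean ratio of the members with the processing used here. Its log2 intensity was 9.82, 9.85, 9.45 and 9.05 in the resveratrol samples, against 10.13, 10.20, 10.18 and 10.02 in the control pool. The pool channel varied little between arrays, and every resveratrol value lay below every pool value, a separation downward found for 10.3% of probes with values on 4 arrays. Log2 ratios were -0.31, -0.35, -0.73 and -0.97, so the fall was deeper on both arrays of slide 2. The mean was -0.59 ± 0.13 (adjusted p = 0.0188), a fold of 0.665. On slide 1 alone it was -0.33 (adjusted p = 0.0255) and on slide 2 alone -0.85 (adjusted p = 0.0461), and the difference between slides was not tested. Leaving out any 1 array kept the call. Median centring ended it (-0.22, adjusted p = 0.308), as did the widened standard error (0.0844). The rank of Socs3 changed with the setting. Osmr was lower with processed signals (-0.87 against -0.53), in the authors' table (-0.87 against -0.66) and under median centring (-0.32 against -0.22).

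The genes with the 4 ratios most like those of Socs3 were Lyrm1, Or6k2, Ptch1, Or5p53 and Sod3, at root mean square differences of 0.045, 0.047, 0.050, 0.062 and 0.076. Or6k2 and Or5p53 are named as olfactory receptors, Ptch1 encodes the Hedgehog receptor and Sod3 an extracellular superoxide dismutase. Their means ran from -0.58 to -0.56 on the log2 scale.

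Socs1, an inhibitor that acts on Janus kinases directly, was lower by a smaller amount. Log2 levels were 9.04, 8.87, 9.18 and 8.81 in the resveratrol samples and 9.35, 9.14, 9.62 and 9.28 in the pool. Within each array the resveratrol channel was the lower one, but across arrays the levels overlapped. Log2 ratios were -0.31, -0.27, -0.45 and -0.47, with a mean of -0.37 ± 0.08 (adjusted p = 0.0178), a fold of 0.772. The call was lost without replicate 1 (-0.40, adjusted p = 0.0658), without replicate 2 (-0.41, 0.0653), on slide 2 alone (0.0792), with processed signals (-0.29, 0.0907) and under median centring (-0.12, 0.604).

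Cish, a STAT5-induced member of the same family in mouse and human cells, had the largest spread of the tested members. Its log2 intensity was 12.85, 12.22, 12.23 and 13.23 in the resveratrol samples, against 12.05, 11.81, 12.37 and 11.91 in the control pool. On replicate 3 the resveratrol channel was the lower one, and on the other arrays it was the higher one. Log2 ratios were 0.80, 0.41, -0.14 and 1.32, with a mean of 0.60 ± 0.23 and an adjusted p of 0.0716, so it was not called. The standard error from its own 4 arrays was 0.31. The outcome turned on replicate 3: without it the mean was 0.84 and the adjusted p 0.0134. Slide 1 alone gave 0.60 (adjusted p = 0.00491), and ratios from the authors' deposited table gave 0.53 (0.0495). Median centring gave 1.18 (2.32e-10), an adjusted p that followed ratio size there and not the spread of the 4 arrays.

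Socs2, a regulator of growth hormone signalling in mice, was detected in Cy5 on replicate 4 only, and in Cy3 on no array. Log2 levels were 7.54, 7.33, 7.44 and 8.09 in the resveratrol samples and 6.96, 7.08, 7.05 and 7.18 in the pool. All 4 log2 ratios were positive, at 0.59, 0.25, 0.38 and 0.91. Since the pool was never detected, the fold is only a bound, at least 1.04-fold higher in the resveratrol samples, set by the lowest detected signal and open to dye bias. The probe was not tested. Without a brightness filter its measured mean was 0.53 with an adjusted p of 0.0167, and the authors' deposited table gave 1.14 on 3 arrays (adjusted p = 0.0234).

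Of the 9 tested probes, 2 had all 4 ratios above 0 and 5 had all 4 below 0. Over all probes with values on 4 arrays these shares were 37.7% and 26.0%. The other 2, Jak2 probe 1 and Cish, crossed 0.

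Promoters are shown for Cish and Socs1, because they were the only members with the STAT half-site pair TTCNNNGAA in the window searched, and because these genes are textbook STAT targets. The window runs from 250 bases before to 50 bases after the annotated start of each gene in RefSeq GRCr8, a build other than that of the probes, and the first 250 bases are printed. Matches are in capitals and the rest in lower case. The motif reads the same on both strands, and no match overlapped another.
Cish, GRCr8 chr8:116850719-116850968, plus strand: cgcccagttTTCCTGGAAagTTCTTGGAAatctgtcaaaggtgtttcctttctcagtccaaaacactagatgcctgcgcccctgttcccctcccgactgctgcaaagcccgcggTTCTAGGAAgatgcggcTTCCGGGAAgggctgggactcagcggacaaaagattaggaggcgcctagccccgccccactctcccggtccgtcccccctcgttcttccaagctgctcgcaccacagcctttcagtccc
Socs1, GRCr8 chr10:5389324-5389573, plus strand: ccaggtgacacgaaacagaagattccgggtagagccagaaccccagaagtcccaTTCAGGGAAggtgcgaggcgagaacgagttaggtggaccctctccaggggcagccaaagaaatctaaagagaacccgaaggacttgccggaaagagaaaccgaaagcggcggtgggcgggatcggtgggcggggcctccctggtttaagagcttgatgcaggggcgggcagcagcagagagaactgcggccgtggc
Cish held 4 matches, TTCCTGGAA, TTCTTGGAA, TTCTAGGAA and TTCCGGGAA, beginning 241, 230, 136 and 119 bases before the start. Socs1 held TTCAGGGAA, 196 bases before. Of all 33469 promoters available, 8.87% held at least 1 match and 2 (0.006%) held at least 4. Il6, Il6r, Il6st, Osmr, Jak2, Stat3 and Socs3 had no match in their windows, and no window for Socs2 was used here. Only 1 annotated start per gene was searched, so a site outside that window would have been missed. A match is a string of letters and not a measured binding site. The gene with 4 matches had ratios on both sides of 0, and the gene with 1 match was lower on all 4 arrays.

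Around the members, 45 further genes of cytokine signalling were listed by role, of which 40 were on the array and 26 could be tested. They had 5 genes higher, 4 lower and 17 not called, with a median log2 ratio of -0.02. Over all genes tested, 25.7% were higher and 19.6% lower. None of the 7 IL-6 family and related ligands on the array could be tested. Il11, Cntf and Il10 were detected in neither channel on any array, as Il6 was, and Clcf1 was detected only in Cy3, on 1 array by 1 probe and on 2 by the other. Lif and Ctf1 were detected in both channels on all 4 arrays but had no value without an outlier flag, and Osm, detected on 3, had 1. The kinase Jak1, which pairs with JAK2 on gp130, rose with log2 ratios of 0.79, 0.53, 0.45 and 1.34 and a mean of 0.78 ± 0.16 (adjusted p = 0.0142). Its call was lost without replicate 1 (0.78, adjusted p = 0.0511).

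Il10rb, a chain of the IL-10 and IL-22 receptors, was higher at 0.46 ± 0.10 (adjusted p = 0.019). Socs4, a further member of the inhibitor family, was higher at 0.39 ± 0.08 (0.0153). Among the adaptors and shedding proteases, Sos1, an exchange factor for Ras, was at 0.44 ± 0.11 (0.0268) and Adam17, the protease that sheds the IL-6 receptor, at 0.37 ± 0.10 (0.031). These 4 calls were lost without replicate 1 (adjusted p from 0.0675 to 0.115), those of Socs4, Sos1 and Adam17 without replicate 2 (0.0698 to 0.103), and those of Il10rb, Sos1 and Adam17 without replicate 4 (0.0532 to 0.0784). That of Adam17 was also lost with slides as random blocks (0.0552), with processed signals (0.0762) and under median centring (0.0719). Sos1 and Adam17 were detected in Cy5 on 3 arrays and in Cy3 on 2, and Socs4 in Cy3 on 2. On slide 2 alone 0 of the 17 pathway genes tested there were called in either direction by limma, with 2 higher and 2 lower at an unadjusted p below 0.05.

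The 4 lower pathway genes were measured on the arrays of slide 1 only, since their spots carried outlier flags on slide 2. Stat5b, a STAT that growth hormone and interleukin-2 activate, was at -0.75 ± 0.14 (n = 2 arrays, adjusted p = 0.0205). Il2rg, the shared chain of the interleukin-2 receptor family, was at -0.75 ± 0.14 (n = 2; 0.0204). Stat5a was at -0.55 ± 0.14 (n = 2; 0.0376) and Il27ra, which pairs with gp130, at -0.50 ± 0.13 (n = 2; 0.0439). Without replicate 1 or 2 none of these could be tested. With slides as random blocks the calls of Stat5a (adjusted p = 0.057) and Il27ra (0.0658) were lost. Under median centring all 4 calls were lost, at log2 ratios of -0.27, -0.26, -0.19 and -0.12. The phosphatases Ptpn1, Ptpn2, Ptpn6 and Ptpn11, which remove phosphate from kinases and STATs, had 0 of 4 called by limma, with 1 lower at an unadjusted p below 0.05. The PIAS inhibitors had 0 of 3 called, again with 1 lower unadjusted.

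**Figure D4:**
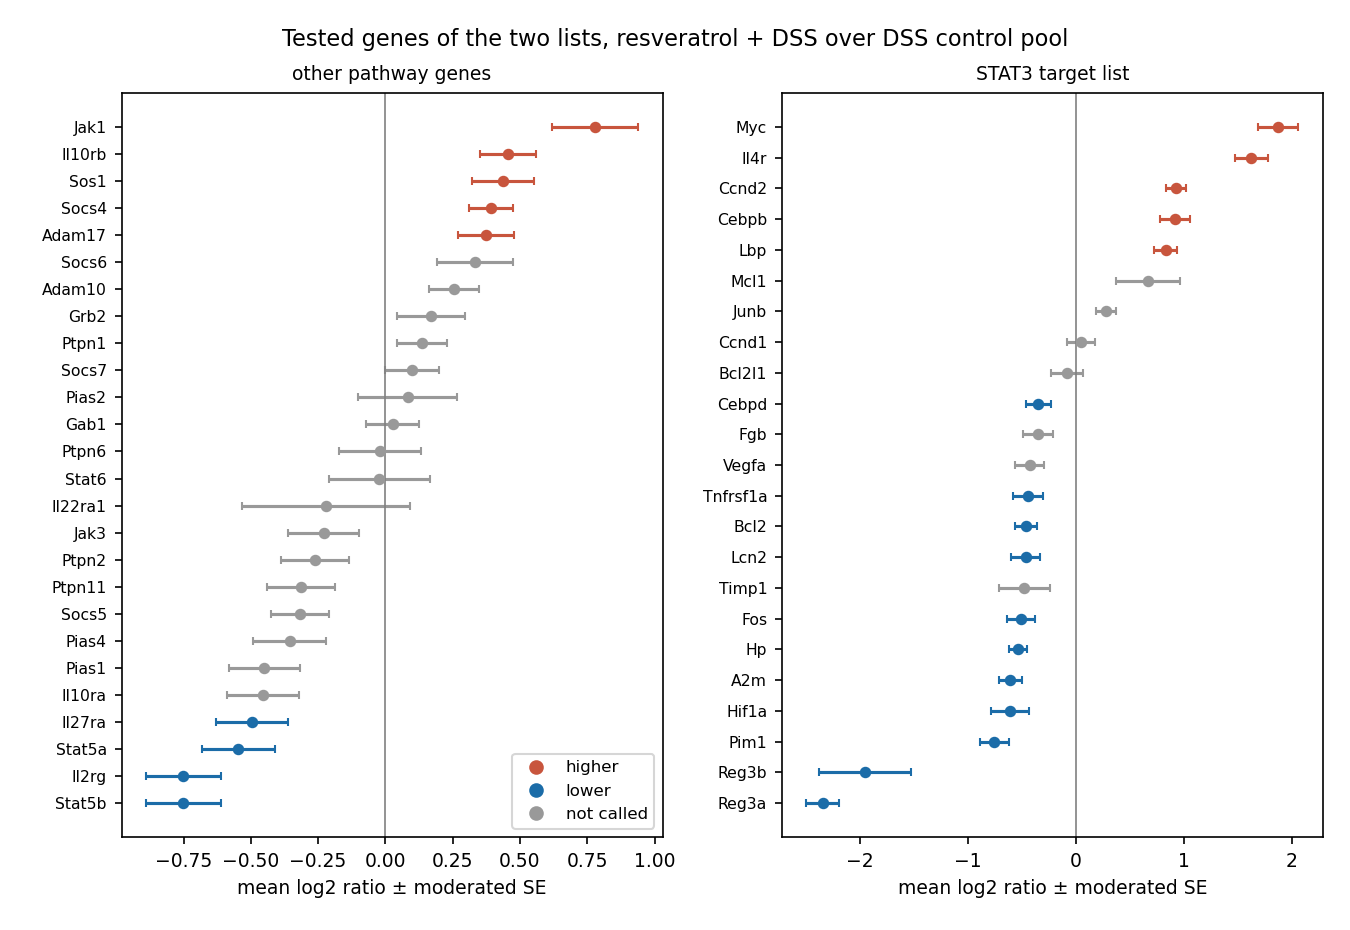
Mean log2 ratio ± moderated SE (horizontal axis, resveratrol plus DSS over the DSS control pool) of the tested genes of the pathway list (26 genes, left) and of the STAT3 target list (23 genes, right); red marks genes called higher, blue lower and grey not called. The pathway genes lie between -0.75 and 0.78, and the targets between -2.34 and 1.87.

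Transcript levels of Stat3 do not report STAT3 activity, which depends on phosphorylation and was not measured. A list of 30 textbook STAT3 target genes moved in both directions. Of 28 on the array, 23 were tested, and 5 were higher, 11 lower and 7 not called, with a median log2 ratio of -0.43 against 0.02 for all genes tested, of which 25.7% were higher and 19.6% lower. Of 5 targets with several tested probes, 3 had probes that differed in call. These were Hif1a, which is counted as lower, and Ccnd1 and Bcl2l1, counted as not called. The second Ccnd1 probe was at 0.75 (adjusted p = 0.0131), and Bcl2l1 had other probes at 0.42 (0.0178) and -0.66 (0.0149). The list mixes growth genes and acute phase genes, many of which other factors also control.

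Among the higher targets, Myc, a driver of proliferation, had log2 ratios of 2.32, 1.59, 1.35 and 2.25, with a mean of 1.87 ± 0.18 (adjusted p = 0.00409). Il4r, the receptor chain of interleukin-4, was at 1.62 ± 0.16 (0.00409), and Ccnd2, a cyclin of the early cell cycle, was at 0.93 ± 0.09 (0.00409). These 3 genes were called in 16 of 16 alternatives. The probes of Myc and Il4r each carry 1 of the hexamers described above, and that of Ccnd2 carries 0. What the hexamers did to these ratios was not tested. Cebpb, a transcription factor of inflammation and differentiation, was at 0.92 ± 0.14 (adjusted p = 0.007), and Lbp, the carrier of bacterial lipopolysaccharide, at 0.83 ± 0.11 (0.00515).

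The lower targets were led by the antimicrobial lectins of the regenerating family. Reg3a was at least 3.94-fold lower in the resveratrol samples, with Cy5 well above background on 0 and Cy3 on all 4 arrays (adjusted p = 0.00336). Reg3b had log2 ratios of -3.12, -2.79, -1.27 and -0.63, a mean of -1.95 ± 0.43 (adjusted p = 0.0167) and a deeper fall on slide 1, where the Socs3 fall was shallower. The pancreatic enzyme genes above, 4 of 5 lower with a median of -1.89, moved the same way as both lectins, and their part in these ratios was not tested. The Reg3b call was lost without replicate 2 (-1.67, adjusted p = 0.0539). Among acute phase genes, A2m fell to -0.61 ± 0.11 (0.00989) and Hp, haptoglobin, to -0.54 ± 0.08 (0.00742), and both kept their calls without any 1 array. The A2m probe carries a hexamer.

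Pim1, a kinase gene that STAT signals induce, was at -0.76 ± 0.13 and Lcn2, an antimicrobial siderophore binder, at -0.47 ± 0.13, each on the 2 arrays of slide 1 (adjusted p = 0.0189 and 0.0491). Without replicate 1 or 2 neither could be tested, and Lcn2 missed the threshold without replicate 4 (0.0527) and with slides as random blocks (0.0734). Fos, an immediate early gene, was at -0.51 ± 0.13 (0.0244) and missed it without replicate 1 (-0.42, 0.089) or 2 (-0.46, 0.091). Hif1a, the hypoxia factor, was at -0.61 ± 0.18 (0.0354), but its second probe was called the other way, higher at 0.32 (0.0442), so its direction is not settled. The call of the first probe was lost with slides as random blocks (0.0566) and without replicate 1 (-0.54, 0.109), 3 (-0.48, 0.0644) or 4 (-0.59, 0.0911). The other 3 lower genes had smaller ratios.

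Markers of the cells that could contribute these transcripts moved too, and their part in the members' ratios was not tested. The counts of marker genes stand beside 25.7% higher and 19.6% lower of all 9428 genes tested. Of 10 colon epithelium markers tested, 5 were higher and 0 lower by limma, with a median log2 ratio of 0.84 (Car1, carbonic anhydrase 1, at 0.88 ± 0.28 on 3 arrays, not called, and Krt8, a keratin, at 0.80 ± 0.12 on 3 arrays). All 10 means lay above 0, from 0.08 to 1.63, and 7 had an unadjusted p below 0.05. Over the 6 with levels on every array, the mean log2 level ran from 12.3 to 13.0 in the resveratrol samples and from 11.5 to 12.3 in the pool. Over the same 6, the median ratio was smallest on replicate 3, at -0.06, against 0.79, 0.88 and 0.80 on replicates 1, 2 and 4. Replicate 3 was also the array with the smallest ratios of Stat3 probe 1 and Cish. Stat3 probe 2 did not share this order, with its second highest ratio, 0.51, on replicate 3. Untested Socs2 was lowest on replicate 2, at 0.25.

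Markers of blood and connective tissue cells were mostly lower, as were Socs1 and Socs3. The levels given for them are means over only the genes with levels on every array. These were 4 neutrophil, 6 macrophage, 4 T cell, 5 fibroblast and 3 smooth muscle genes, while counts and medians of means cover all tested ones. All 5 tested neutrophil markers were lower (median -0.55), with mean log2 levels of 8.39 to 9.35 in the resveratrol samples and 10.4 to 10.5 in the pool. S100a9, a calprotectin subunit, was at -2.06 ± 0.27 and Np4, a defensin, at -0.55 ± 0.15 on 2 arrays, while Cxcr2 and Mmp8 were never detected. Over the 4 neutrophil genes with values on every array, medians were -1.0 and -0.95 on slide 1 and -1.51 and -1.88 on slide 2. Socs3 too was lower on slide 2. This was not particular to neutrophil genes: macrophage, T cell, fibroblast and smooth muscle medians and Hbb were also lower on slide 2. Macrophage medians were -0.49 and -0.58 on slide 1 and -0.80 and -0.90 on slide 2. Pancreatic, B cell and epithelial genes were not lower on both arrays of slide 2. Of 7 macrophage markers 6 were lower (median -0.76, levels 8.31 to 8.68 against 9.04 to 9.22 in the pool), with Lyz2, lysozyme, at -1.06 ± 0.13 on 2 arrays. Cd14, the lipopolysaccharide coreceptor, was at 0.24 ± 0.12 by its brightest probe, not called, and its second probe was called higher at 0.73 (adjusted p = 0.00949).

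Of 5 T cell markers 4 were lower (median -0.50, levels 7.98 to 8.37 against 8.12 to 8.86 in the pool), among them Cd6 at -0.60 ± 0.13 on 2 arrays and Cd3d, a chain of the T cell receptor complex, at -0.75 ± 0.19. Of 6 fibroblast markers 5 were lower (median -1.18, levels 8.07 to 9.13 against 9.99 to 10.4), with Col1a2 at -1.95 ± 0.08. Col1a1 was at 0.22 ± 0.12 on 3 arrays by its brightest probe, not called, while its other 2 tested probes were called lower, at -2.71 (adjusted p = 0.00404) and -1.48 (0.00514). Thy1 was never detected. Of 5 smooth muscle markers 1 was lower (median -0.56, levels 9.23 to 12.1 against 11.6 to 12.1). The brightest were Actg2, an actin of smooth muscle, at 0.43 ± 0.17, and Cnn1, calponin, at -0.46 ± 0.13 on 2 arrays, neither of them called. The 1 tested B cell marker, Cd79b, was at -0.22 ± 0.08 and not called, and both tested erythrocyte genes were lower, with Hbb, beta globin, at -2.65 ± 0.12 and Alas2 at -0.66 ± 0.13 on 2 arrays.

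How the arrays were scaled bears on every direction given above. Centring each array on its median, without loess, moved the median of all tested probes to 0.20, against -0.02 with loess, and the calls over all probes to 6852 higher and 1839 lower. Relative to that median, the centred values of the members were -0.32 for Il6st, -0.52 for Osmr, -0.15 and -0.31 for Jak2, 1.17 and 0.25 for Stat3, -0.32 for Socs1, -0.42 for Socs3 and 0.98 for Cish. These have the signs of the loess values, while the calls of Il6st, Osmr, Socs1 and Socs3 were lost. Adjusted p-values of limma under median centring followed ratio size at a given number of arrays. For example, Reg3a at -2.23 and Il4r at 2.23 had 2.8e-35 and 2.29e-35. A call kept or lost there is a cut on ratio size and does not weigh a probe's own spread. A standard error larger by the square root of 2 allows for a pool as precise as the mean of the 4 resveratrol samples. The labels do not give the number of pooled rats, so the pool's own spread may be larger. With this error, 7.72% of all probes were higher and 3.84% lower. Of the member probes 0 were called in either direction by limma, with 2 higher and 3 lower at an unadjusted p below 0.05.

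**Figure D5:**
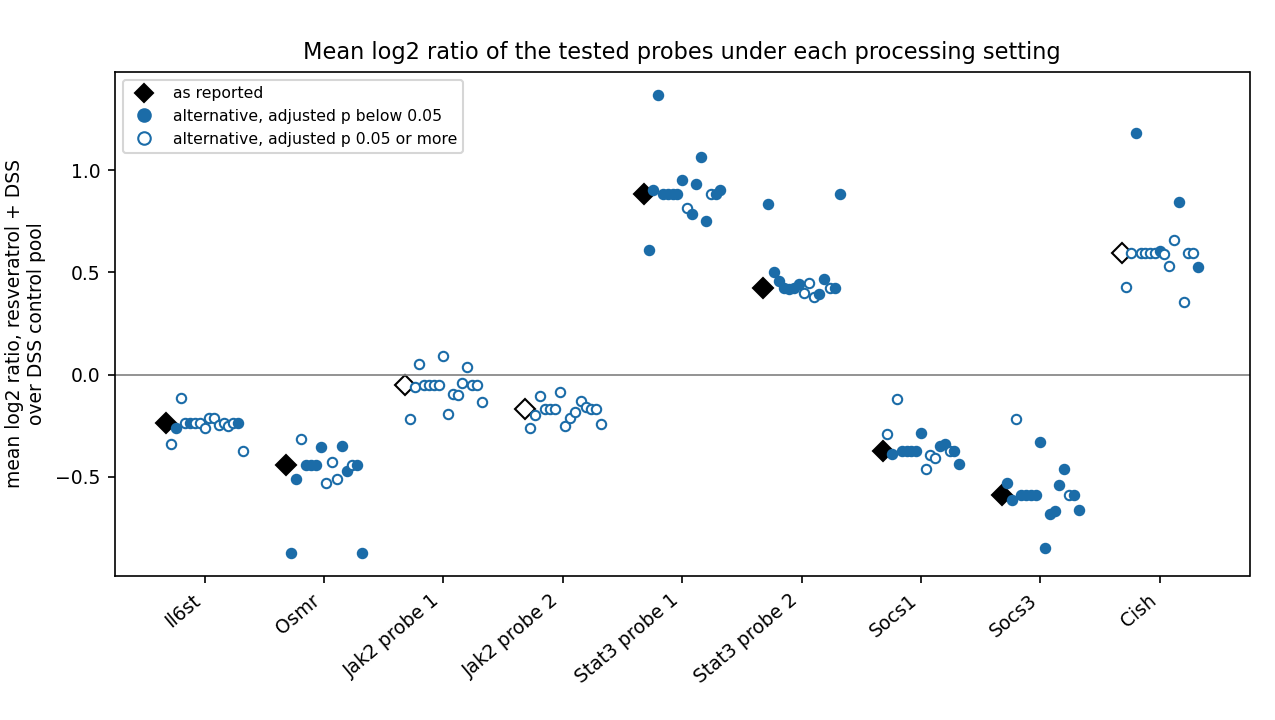
Mean log2 ratio (vertical axis, resveratrol plus DSS over the DSS control pool) of the 9 tested probes as reported (black diamonds; open where not called) and under each alternative setting (circles, filled where the adjusted p is below 0.05). Stat3 stays above 0 and Il6st, Osmr, Socs1 and Socs3 stay below 0 in every setting shown, and Jak2 probe 1 crosses 0.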

How the data were processed

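Members and gene lists were chosen with earlier results of these data known. Per the file headers, the deposited intensity of each spot was read by Agilent Feature Extraction 9.5.3.1, with probes placed on rn3, and a processed intensity was background-subtracted and dye-normalized. The authors' deposited value table holds log2 ratios; their centring is unknown. Limma is named in the submitters' processing notes.

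From mean signals and local background medians, normexp (offset 50) and loess within arrays were computed (limma 3.58.1, R 4.3.3). The 1639 control spots of 45018, and outlier spots, had weight 0, and spots of 1 probe were averaged. Tested probes had 3 or more arrays with either channel well above background, and 2 or more values. The mean log2 ratio was tested against 0 (lmFit, eBayes, two-sided) with Benjamini-Hochberg adjustment over 18869 probes, and the fit was tested on simulated data. P-values measure the spread between 4 arrays and leave out that of the pool. Under median centring they followed ratio size at a given number of arrays and not each probe's own spread. An exact permutation test on 4 arrays could not go below 0.125. Levels per channel are after loess and Aquantile. Names came through a RefSeq GRCr8 table for 20101 probes (10735 by accession). A gene is represented by its brightest tested probe. One gene of the pathway list is not reported here. All members were named, up to 8 called genes per direction of each list, the 5 genes most like Stat3 and Socs3, and the 2 brightest genes of each marker list. Alternatives were other background corrections, scalings, filters, slide settings, priors and errors, the authors' table, and each array left out.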

Additional observations from a re-analysis of the deposited data

Results flagged for a closer look

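Socs2 was the member whose only clear signal lay outside the tested data. On replicate 4 its Cy5 spot was well above background and its log2 ratio was 0.91, while its Cy3 spot was well above background on 0 of 4 arrays. The bound over the 4 arrays was only 1.04-fold, and the missing Cy3 detection does not show that the control pool lacked the transcript. Among the 12 member probes, no array stood apart from the other 3 by Dixon's criterion.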

How the results depend on the processing

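Each value is already a ratio to the pool channel of its own array, so the 2 channels are paired within arrays. No further pairing was possible, because the labels give a single group of samples.
Of the 9 tested member probes, Stat3 probe 1 and Socs3 kept their call in 14 of 16 alternatives, Stat3 probe 2 in 11 of 15, Osmr in 10 of 15, Socs1 in 10 of 16 and Il6st in 3 of 16; Cish was called in 4 of 16 and Jak2 in none. Jak2 probe 1, at -0.050, turned to 0.053 under median centring and 0.093 on slide 1 alone, and ran from -0.10 to 0.035 when 1 array was left out, called in none of these.

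Member probes called higher, 2 as reported, were 1 when both channels had to be above background on every array and 4 in the authors' table, which adds Cish and Socs2. Those called lower, 4 as reported, were 2 with processed signals, 0 under median centring and 2 with both channels above background. All probes numbered 2584 higher and 1967 lower with both channels above background, and 1839 lower under median centring. Pathway genes higher (5) were 2 with both channels above background and 8 on slide 1 alone; those lower (4) were 0 under median centring, 2 with both channels, 7 without a brightness filter, 9 with outlier spots kept, 2 with slides as random blocks and 8 on slide 1 alone. STAT3 targets lower (11) were 3 under median centring, 5 with both channels and 7 with random blocks. Marker genes higher (5) were 13 under median centring and 9 on slide 1 alone, and those lower (27) were 12 with both channels.

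On slide 2 alone the counts were 0 higher and 1 lower for members, and 747 and 1002 for all probes. For the pathway they were 0 and 0, for targets 3 and 5, and for markers 1 and 19. With the standard error times the square root of 2 the counts were 0 and 0 for members, and 1456 and 724 for all probes. With this error the pathway had 0 and 0, targets had 5 higher and 2 lower, and markers 2 higher and 13 lower. Leaving out 1 array gave 1 to 3 higher and 1 to 3 lower member probes, 1946 to 4751 and 1426 to 4213 probes, 0 to 7 and 0 to 7 pathway genes, 5 to 6 and 4 to 9 targets, and 3 to 9 and 15 to 26 markers. Settings with 1 slide or 3 arrays hold fewer samples by construction; for the other shifts the cause was not tested. Signal over background limits Il6, Il6r and Socs2.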
